A study of Homo sapiens with 4 samples.

Results

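Interferon-stimulated genes (ISGs) and their regulators were followed in ES2, an established human ovarian cancer cell line that the study describes as cisplatin resistant. Members were 41 genes chosen by symbol, among them the IFIT, OAS, MX, GBP and IFITM families, the sensors DDX58, IFIH1, DDX60 and IFI16, and the transcription factors STAT2, IRF1, IRF7 and IRF9. All 41 were found among the 23228 genes of the count tables. RNA was sequenced from cells given vehicle and from cells given 100 μM liquiritigenin (Liq), a plant flavanone that the study used as an agonist of estrogen receptor beta, each for 24 h and with 2 samples per group. Both groups were grown in phenol red-free RPMI-1640 with charcoal-stripped serum, and the labels name no interferon or virus for either group. The question addressed here was whether Liq moved the interferon program of these cells, since the study was concerned with inflammatory signaling.

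Type I and type III interferons bind their receptors at the cell surface and activate the kinases JAK1 and TYK2. These phosphorylate STAT proteins, among them STAT2, which joins IRF9 in a complex that binds the interferon-stimulated response element (ISRE) in the promoters of ISGs, whereas interferon gamma acts mainly at the gamma-activated site (GAS). Tumor cells often keep part of this program active without added interferon, and its products sense foreign nucleic acid, block viral translation and entry, or feed back on the receptor.

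To show the response element that interferon signaling uses, 60 bases of the promoter are given for 5 members that changed with Liq and 2 that did not pass the test, IFIT3 and ISG15. Only members that hold the letters of the element are printed. DDX58, IFI16, STAT2 and IFI35 also changed with Liq and had no such letters in the 250 bases searched, and IFIT2 and IFITM2 had no promoter entry. The sequences are RefSeq promoters of build GRCh38.p14, 5′ to 3′ on the strand of the gene, and capitals mark each match to the core of the ISRE, GAAA followed by any 2 bases and GAAA again, which appears as its reverse complement where the match lies on the other strand.
IFIT1: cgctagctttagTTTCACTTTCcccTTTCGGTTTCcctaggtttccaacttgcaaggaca
IFI6: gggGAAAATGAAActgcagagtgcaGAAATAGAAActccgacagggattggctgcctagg
DDX60: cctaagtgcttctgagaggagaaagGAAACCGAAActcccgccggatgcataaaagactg
GBP1: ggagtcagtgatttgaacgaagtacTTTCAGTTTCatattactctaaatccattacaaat
ISG20: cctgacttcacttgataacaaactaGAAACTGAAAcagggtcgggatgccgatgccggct
IFIT3: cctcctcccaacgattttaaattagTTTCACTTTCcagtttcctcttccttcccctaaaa
ISG15: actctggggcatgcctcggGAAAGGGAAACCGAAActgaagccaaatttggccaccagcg
These stretches lie upstream of the annotated starts at chr10:89392495-89392554 (plus strand) for IFIT1, chr1:27672251-27672310 (minus strand) for IFI6, chr4:168318771-168318830 (minus strand) for DDX60, chr1:89065301-89065360 (minus strand) for GBP1, chr15:88638922-88638981 (plus strand) for ISG20, chr10:89327850-89327909 (plus strand) for IFIT3 and chr1:1013365-1013424 (plus strand) for ISG15. Among the 32 members with a RefSeq promoter entry, 21 (65.6%) held a match to these letters on either strand within 250 bases upstream of a listed start, whereas 3.71% of all 27305 genes searched did so. The GAS letters TTCNNNGAA, also searched on both strands, occurred in 10 of the 32 members (31.2%) and in 8.09% of all genes. A match to either motif is a description of the letters and does not show that a factor binds there, and both motifs may occur in 1 promoter.

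The libraries held 34573053 to 48933893 reads on genes, so that 3 counts, the limit that a count of 0 allows, correspond to 0.0598 to 0.0844 CPM, the unit of level used here (counts scaled to a common library size with TMM factors). The ES2 label was checked against markers. Keratin genes KRT8, KRT18 and KRT7 and the mesenchymal genes VIM, FN1 and CDH2 were abundant, EPCAM had 1 to 3 counts and CDH1 had 0, so the epithelial adhesion markers were absent or near 0. Among the abundant markers, KRT7 rose by 0.51 on the log2 scale and CDH2 by 0.22 (edgeR quasi-likelihood test, adjusted p = 1.1e-05 and 0.026), KRT18, VIM and FN1 fell by 0.24, 0.28 and 0.15 (adjusted p = 0.013, 3.4e-04 and 0.024), and KRT8 did not pass the test (log2 fold change 0.13, adjusted p = 0.32). Of the ovarian and clear cell markers, WT1 (98 to 181 counts) and PAX8 (12 to 49 counts) were present and both fell with Liq, by 0.68 and 1.34 on the log2 scale (edgeR quasi-likelihood test, adjusted p = 0.0028 and 0.0021), whereas MUC16 had at most 1 count and NAPSA had 1 to 8. Of the leukocyte markers, PTPRC, CD3E, MS4A1, ITGAM, LILRB4 and IRF8 had 0 or 1 count in every sample, CD14 had 3 to 11, LYZ fell from 23 and 15 to 8 and 9 counts (adjusted p = 0.041), and CD68, a lysosomal gene, was at 66.4 to 77.4 CPM. The summed level of this list, nearly all of it CD68, was 68.3 to 74.9 CPM in vehicle and 66.6 to 78.0 CPM in Liq. Of the endothelial markers, PECAM1 and VWF had 1 to 10 counts and CDH5 was at 44.6 to 52.9 CPM. ESR2, which encodes estrogen receptor beta, had 4 and 7 counts in vehicle and 5 and 14 in Liq, too few to test. In bulk RNA, a change in the number of cells of a kind and a change in RNA per cell cannot be told apart.

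The interferon-stimulated genes did not move together with Liq (edgeR quasi-likelihood test over all 13546 genes that passed a filter on low counts, Benjamini-Hochberg adjusted p under 0.05). Of the 41 members, 33 passed the filter, 7 of these rose and 4 fell, and 22 did not pass the test. That is 21.2% of the tested members higher and 12.1% lower, beside 12.6% higher and 11.3% lower among all tested genes. With the added requirement of a 1.5-fold change, the threshold the study used, IFIT1 and IFI6 were higher and ISG20 was lower, which is 6.06% and 3.03% of the tested members beside 4.29% and 2.16% of all tested genes. The median log2 fold change of the tested members was 0.044 and that of all tested genes was 0.0062. Both Liq samples lay above both vehicle samples in 12 of the 33 tested members and below them in 7, and the groups overlapped in 14. Among all 13546 tested genes, 4270 (31.5%) lay above and 4088 (30.2%) below. Offsets fitted along the expression level by loess left 0 members higher and 2 lower at 1.5-fold, and 2 higher and 4 lower without the fold threshold. With the same offsets, 350 of all 13546 tested genes were higher and 394 lower at 1.5-fold, and 1485 higher and 1349 lower without that threshold. The labels do not say that the 2 samples of a group came from separate cultures, so these p-values measure the spread between these samples, which may be technical, and an exact permutation test of 2 against 2 samples cannot go below p = 0.3333.

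**Figure D1:**
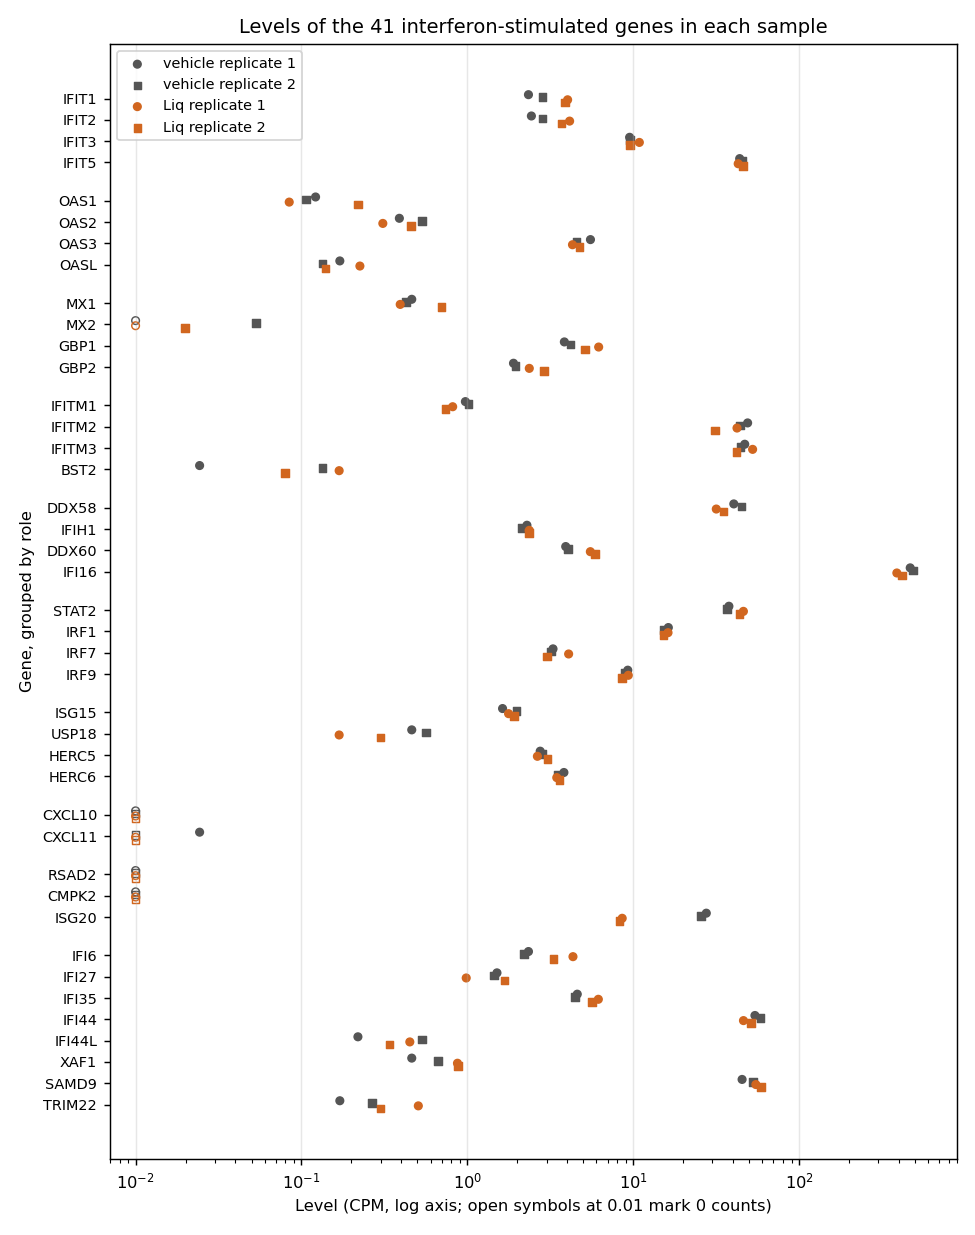
Level of each of the 41 genes in each of the 4 samples, in CPM on a log axis, with genes grouped by role and open symbols for 0 counts. Levels ran from 0 counts for CXCL10, RSAD2 and CMPK2 to 388 to 484 CPM for IFI16, and ISG20 is the gene whose vehicle and Liq symbols stand farthest apart among genes above 1 CPM.

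**Figure D2:**
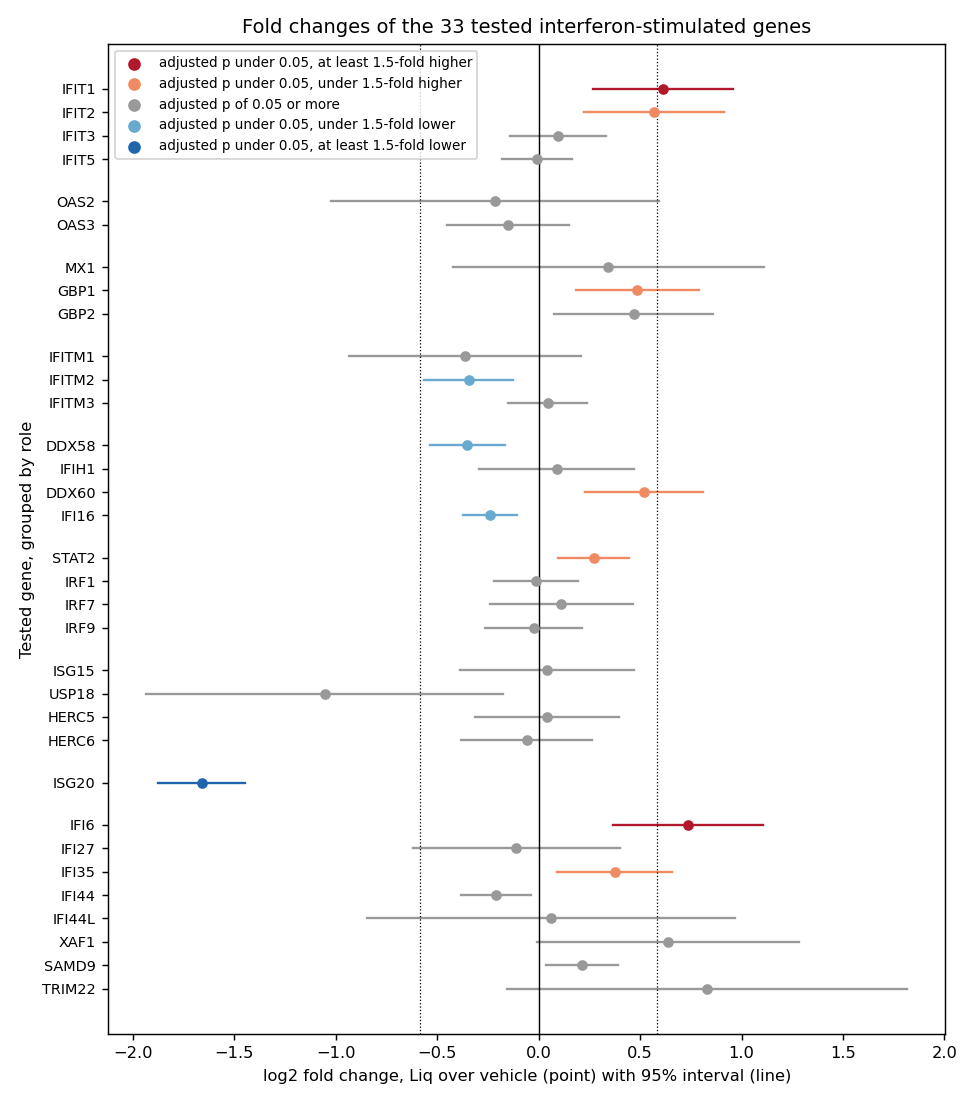
Log2 fold change, Liq over vehicle, of the 33 tested genes (points) with 95% intervals (lines) from the edgeR fit, colored by whether the gene passed the test, with dotted lines at 1.5-fold. ISG20 (-1.66) stands farthest to the left, IFIT1 (0.61) and IFI6 (0.74) are the genes that passed the test to the right of the upper dotted line, and the widest intervals run down to -1.93 for USP18 and up to 1.82 for TRIM22.

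The largest change was the fall of ISG20, an exonuclease that degrades single-stranded RNA and DNA and restricts RNA viruses. ISG20 (chr15:89178901-89199714, plus strand, GRCh37) was counted 1133 and 961 times with vehicle and 305 and 415 times with Liq, or 27.6 and 25.7 CPM against 8.58 and 8.27 CPM. The Liq samples lay far below the vehicle samples, with no overlap. The mean level was 26.6 ± 1.3 CPM with vehicle and 8.42 ± 0.22 CPM with Liq (SD, n = 2), which is 3.16-fold lower (log2 fold change -1.66, SE 0.10, 95% interval -1.87 to -1.45, adjusted p = 3.5e-12). ISG20 ranked 21 among all tested genes by p-value. Per kilobase of transcript its level fell from 16.8 to 5.32 CPM per kb, which moved it from the place after IFI44 (33.5 in vehicle) in the order of members to below DDX58 (7.20 in Liq) and IRF9 (5.51 in Liq). The fall passed the test in every alternative, with log2 fold changes from -1.71 to -1.61. The other 2 antiviral enzymes on the list, RSAD2 (viperin) and CMPK2, a mitochondrial nucleotide kinase beside it on chromosome 2, had 0 counts in every sample, which allows up to 0.0844 CPM in the shallowest library.

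The ligands of the pathway were nearly silent in both groups. Of 21 interferon genes searched, 19 had 0 counts in every sample, IFNB1 had 1 count in 1 Liq sample, and IFNE, a type I interferon made by epithelia of the reproductive tract, had 32 and 46 counts in vehicle and 48 and 33 in Liq. The IFNE groups overlapped (log2 fold change -0.05, SE 0.31, adjusted p = 0.93).

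Of the receptor chains, IFNGR2, the signaling chain of the interferon gamma receptor, fell. Its level was 89.7 and 85.6 CPM with vehicle and 59.95 and 63.9 CPM with Liq, with no overlap (log2 fold change -0.50, SE 0.08, adjusted p = 3.2e-05). The ligand-binding chain IFNGR1 was at 52.9 ± 0.4 CPM with vehicle and at 55.7 ± 3.0 CPM with Liq (SD, n = 2) and did not pass the test (adjusted p = 0.53). Neither did the type I receptor chains IFNAR1 (log2 fold change -0.09, adjusted p = 0.51) and IFNAR2 (0.02, adjusted p = 0.88), nor IL10RB (0.15, adjusted p = 0.25), which pairs with the type III receptor chain IL28RA. IL28RA itself had 0 counts in every sample.

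In the kinase and STAT layer, 2 of 9 tested genes rose (22.2%) and 1 fell (11.1%). Among all tested genes 12.6% were higher and 11.3% lower. JAK1 rose by 0.21 on the log2 scale (adjusted p = 0.023), from 288 ± 1 with vehicle to 333 ± 3 CPM with Liq (SD, n = 2), and SOCS3, a feedback inhibitor of JAK kinases, rose from 51.2 ± 3.4 to 65.4 ± 2.7 CPM (log2 fold change 0.35, adjusted p = 0.0026), whereas PTPN2, a phosphatase of the JAKs, fell by 0.29 on the log2 scale (adjusted p = 0.014). Of 9 tested genes of upstream nucleic acid sensing, TMEM173 (STING) fell by 0.40 (adjusted p = 0.0073) and IKBKE, a kinase of IRF3 and IRF7, by 0.58 (adjusted p = 7.99e-04), and 7 did not pass the test. The 2 sensing genes that fell are 22.2% of those tested, beside 11.3% of all tested genes. The cyclic GMP-AMP synthase gene MB21D1, upstream of STING, had 0 counts in both vehicle samples and 2 in each Liq sample. These counts were too few to test and lie under the 3 that a count of 0 allows.

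**Figure D3:**
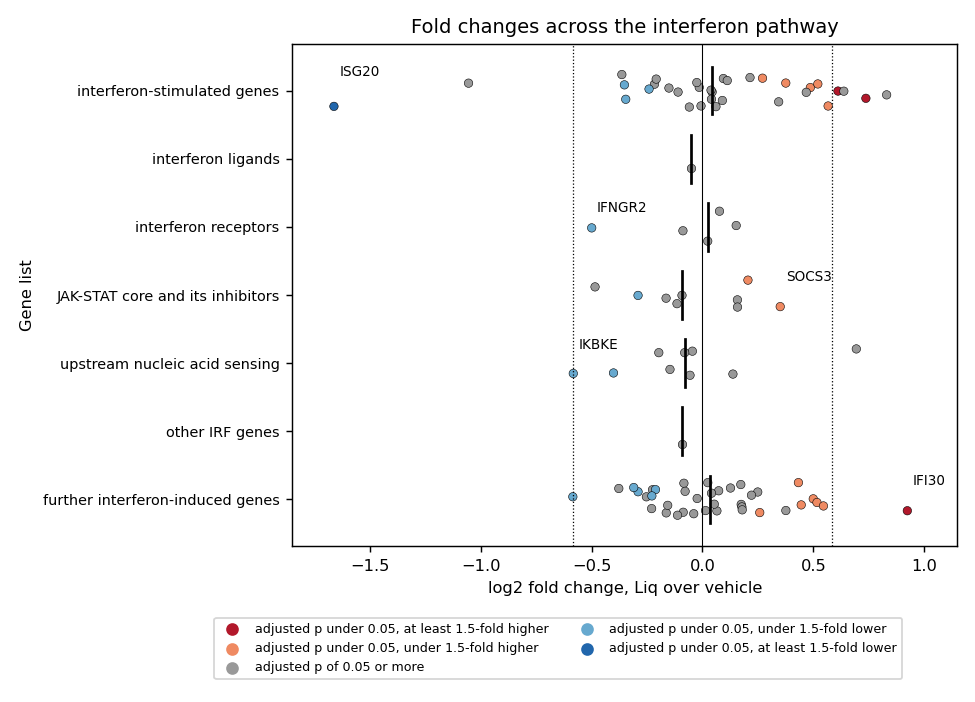
Log2 fold change, Liq over vehicle, of every tested gene in the ISG list and in 6 lists of the surrounding pathway (points, colored by whether the gene passed the test), with the median of each list as a black bar and dotted lines at 1.5-fold. The medians run from -0.09 to 0.04, and ISG20 at the left and IFI30 at the right are the outermost points that passed the test.

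Of the 4 sensor genes of the list, 2 fell (50%) and 1 rose (25%), beside 11.3% lower and 12.6% higher among all tested genes. DDX58 (chr9:32455300-32526206, minus strand, GRCh37) encodes RIG-I, the cytosolic sensor of viral RNA ends. DDX58 was at 40.4 and 44.8 CPM with vehicle and 31.7 and 34.97 CPM with Liq, with no overlap (log2 fold change -0.35, SE 0.09, adjusted p = 0.0054). IFI16 (chr1:158969758-159024945, plus strand, GRCh37), a nuclear DNA sensor and the most abundant member in CPM, was at 467 and 484 CPM with vehicle and 388 and 417 CPM with Liq (log2 fold change -0.24, SE 0.06, adjusted p = 0.0080). Again, both Liq samples were lower than both vehicle samples, although the difference was small, and IFI16 had the highest level per kilobase as well, 165 CPM per kb in vehicle and 140 in Liq. DDX60, a related helicase, went the other way, from 3.92 and 4.06 to 5.51 and 5.90 CPM (log2 fold change 0.52, SE 0.14, adjusted p = 0.0082). IFIH1 (MDA5), the sensor of long double-stranded RNA, was at 2.14 to 2.36 CPM in all 4 samples and did not pass the test (log2 fold change 0.09, 95% interval -0.29 to 0.47, adjusted p = 0.77). Without vehicle replicate 2 the adjusted p was 0.18 for DDX58 and 0.15 for IFI16, and without vehicle replicate 1 it was 0.061 for IFI16 and 0.093 for DDX60. With loess offsets IFI16 (-0.15, adjusted p = 0.089) and DDX60 (0.39, adjusted p = 0.052) lost their calls, and DDX60 also with DESeq2 (adjusted p = 0.066).

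Of the transcription factors, STAT2 rose. STAT2, the partner of IRF9 in the complex that binds the ISRE, was at 37.7 and 36.6 CPM with vehicle and 46.1 and 43.6 CPM with Liq. Its Liq samples were the 2 highest values (log2 fold change 0.27, SE 0.09, adjusted p = 0.021). IRF9, which supplies the DNA contact of that complex, was at 8.59 to 9.34 CPM in all samples (log2 fold change -0.03, 95% interval -0.26 to 0.21, adjusted p = 0.90). IRF1, an early interferon gamma target, was at 15.2 to 16.3 CPM (-0.01, 95% interval -0.22 to 0.19, adjusted p = 0.93), and IRF7, which amplifies type I interferon production, had 120 to 152 counts (0.11, adjusted p = 0.68). For IRF9, IRF1 and IRF7 the interval stayed within a 1.5-fold change in either direction. STAT2 did not pass without vehicle replicate 1 (adjusted p = 0.17), vehicle replicate 2 (0.24) or Liq replicate 1 (0.053).

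The IFIT genes, whose products bind foreign RNA and block its translation, lie side by side on chromosome 10 (chr10:91043451-91181362, GRCh37). Of the 4, 2 rose (50%), beside 12.6% of all tested genes. IFIT1 (chr10:91152303-91166244, plus strand), which recognizes RNA caps that lack a methyl group, had 96 and 106 counts in vehicle and 143 and 194 in Liq, or 2.34 and 2.83 CPM against 4.02 and 3.87 CPM. Both Liq samples were higher, at 3.94 ± 0.11 against 2.58 ± 0.35 CPM (SD, n = 2), a 1.53-fold difference (log2 fold change 0.61, SE 0.17, 95% interval 0.27 to 0.96, adjusted p = 0.0090). IFIT2, its binding partner, moved from 2.43 and 2.83 to 4.13 and 3.69 CPM (log2 fold change 0.57, SE 0.17, adjusted p = 0.015). The 2 more abundant members of the locus did not pass the test. IFIT3 was at 9.51 and 9.59 CPM with vehicle and 10.9 and 9.58 CPM with Liq (log2 fold change 0.09, 95% interval -0.14 to 0.33, adjusted p = 0.59), and IFIT5 was at 42.9 to 45.9 CPM in all samples (-0.01, 95% interval -0.18 to 0.17, adjusted p = 0.96). Per kilobase of transcript the vehicle levels were 0.60 CPM per kb for IFIT1, 0.78 for IFIT2, 3.996 for IFIT3 and 11.1 for IFIT5, so that the genes that rose were the least abundant of the 4. IFIT1 and IFIT2 lost their calls with loess offsets (adjusted p = 0.053 and 0.080), with DESeq2 (0.077 and 0.11) and without vehicle replicate 1 (0.18 and 0.20).

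The OAS genes, whose products make the oligoadenylate that activates RNase L, were low and none passed the test, with edgeR or DESeq2 or at an unadjusted p under 0.05. OAS3 was at 5.52 and 4.54 CPM with vehicle and 4.30 and 4.74 CPM with Liq (log2 fold change -0.15, 95% interval -0.45 to 0.15, adjusted p = 0.49). OAS2 had 11 to 23 counts (-0.22, adjusted p = 0.74), and OAS1 (3 to 11 counts) and OASL (5 to 8 counts) were too low to test. In all 4 genes the groups overlapped.

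Of the dynamin-like MX and guanylate-binding GTPases, GBP1 rose and 2 others had values in the same direction without passing. GBP1, a large GTPase best known as an interferon gamma target, was at 3.84 and 4.19 CPM with vehicle and 6.19 and 5.14 CPM with Liq, with no overlap (log2 fold change 0.49, SE 0.15, adjusted p = 0.017). GBP2, next to it on chromosome 1 (chr1:89517565-89616139, GRCh37), was at 1.90 and 1.95 CPM against 2.36 and 2.91 CPM (0.47, SE 0.19, adjusted p = 0.076), and it passed without Liq replicate 1 (0.60, adjusted p = 0.029). MX1, which traps viral nucleocapsids, had 19 and 16 counts in vehicle and 14 and 35 in Liq (0.34, adjusted p = 0.54), and MX2 had 0 to 2 counts. GBP1 lost its call with loess offsets (adjusted p = 0.086), with DESeq2 (0.098), without vehicle replicate 1 (0.17) and without Liq replicate 1 (0.10).

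The membrane proteins that restrict virus entry or release were unequal. IFITM2, which blocks fusion in late endosomes, was at 48.9 and 43.8 CPM with vehicle and 42.2 and 31.1 CPM with Liq. It was lower in both Liq samples (log2 fold change -0.35, SE 0.11, adjusted p = 0.018), but Liq replicate 2 carried much of the difference: without it the log2 fold change was -0.14 (adjusted p = 0.28), and without Liq replicate 1 it was -0.58 (adjusted p = 4.7e-08). Without vehicle replicate 1 the adjusted p was 0.22. IFITM3, in the same cluster (chr11:303655-329475, GRCh37), was at 41.9 to 52.4 CPM with overlapping groups (0.04, 95% interval -0.15 to 0.24, adjusted p = 0.78), and IFITM1, which acts at the plasma membrane, had 29 to 40 counts (-0.36, adjusted p = 0.37). Of the 100-base windows in their transcripts, 8.20% in IFITM3 and 7.38% in IFITM1 also occur in another gene, so that reads from there were left out of the counts and both values are uncertain. BST2 (tetherin), which holds budding virions at the cell surface, had 1 to 6 counts and was not tested.

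None of the 4 genes of the ISG15 system passed the test, and at an unadjusted p under 0.05 USP18 alone would have. ISG15, the ubiquitin-like protein itself, was at 1.63 and 1.98 CPM with vehicle and 1.77 and 1.91 CPM with Liq (log2 fold change 0.04, 95% interval -0.39 to 0.47, adjusted p = 0.91). HERC5, the ligase that attaches ISG15 to newly made proteins, had 94 to 153 counts (0.04, adjusted p = 0.90), and its neighbor HERC6 had 123 to 180 (-0.06, adjusted p = 0.82). USP18, which removes ISG15 from proteins and dampens the type I receptor, had 19 and 21 counts in vehicle and 6 and 15 in Liq. Both Liq values were lower, at 0.17 and 0.30 CPM against 0.46 and 0.56 CPM, and the difference did not pass the test (log2 fold change -1.05, SE 0.43, 95% interval -1.93 to -0.18, adjusted p = 0.074, unadjusted p = 0.021), except with loess offsets (-1.32, adjusted p = 0.030). USP18 shares 17.7% of its 100-base windows with its copy USP41, so its counts are also uncertain. Of the chemokines, which recruit T cells through CXCR3, CXCL10 had 0 counts in all samples and CXCL11 had 1 count in 1 vehicle sample.

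Among the 8 remaining interferon-induced proteins, IFI6 and IFI35 rose (25%, beside 12.6% of all tested genes). IFI6 (chr1:27992575-27998723, minus strand, GRCh37), a small membrane protein with antiviral and survival functions, had 96 and 82 counts in vehicle and 154 and 166 in Liq, or 2.34 and 2.19 CPM against 4.33 and 3.31 CPM. Both Liq samples were higher, at 3.82 ± 0.72 against 2.26 ± 0.10 CPM (SD, n = 2), a 1.67-fold difference (log2 fold change 0.74, SE 0.18, 95% interval 0.37 to 1.11, adjusted p = 0.0036). IFI6 passed the test in every alternative, with values below 1.5-fold when loess offsets were used (0.57) and without Liq replicate 1 (0.54). IFI35, a leucine zipper protein, moved from 4.60 and 4.46 to 6.16 and 5.64 CPM (log2 fold change 0.38, SE 0.14, adjusted p = 0.048), close to the threshold. It did not pass with DESeq2's size factors in the same fit (adjusted p = 0.0502), with loess offsets (0.21), with the DESeq2 test (0.20) or without vehicle replicate 1 (0.20), vehicle replicate 2 (0.23) or Liq replicate 1 (0.14).

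The other 6 of this group did not pass the test. IFI44 was at 54.1 and 58.5 CPM with vehicle and 46.2 and 51.2 CPM with Liq (log2 fold change -0.21, SE 0.08, adjusted p = 0.073), and its neighbor IFI44L had 9 to 20 counts (0.06, adjusted p = 0.94). SAMD9, an antiproliferative and antiviral protein, was at 45.3 and 52.8 CPM against 54.8 and 58.9 CPM (0.21, SE 0.09, adjusted p = 0.074). The Liq samples of SAMD9 were the 2 highest and those of IFI44 the 2 lowest, with differences that stayed within 1.5-fold. SAMD9 passed with upper-quartile scaling (adjusted p = 0.049), with a replicate block (0.010) and without Liq replicate 1 (0.015), and IFI44 passed with the block (0.0093) and without Liq replicate 2 (0.0089). IFI27, a mitochondrial protein, had 35 to 84 counts with overlapping groups (-0.11, adjusted p = 0.79). XAF1, a proapoptotic antagonist of XIAP, had 19 and 25 counts in vehicle and 31 and 44 in Liq (0.64, SE 0.31, adjusted p = 0.14), and TRIM22, an antiviral ubiquitin ligase, had 7 and 10 against 18 and 15 counts (0.83, 95% interval -0.16 to 1.82, adjusted p = 0.22).

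For 13 of the 22 members that did not pass the test, the 95% interval lay within a 1.5-fold change in either direction, and for the other 9 it reached 1.5-fold. The 8 members that could not be tested had 0 to 11 counts in any sample.

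The level of a gene moved with its fold change in these libraries, as the plot of change against level shows. Over all tested genes the median log2 fold change was 0.25 below 1 CPM, 0.15 from 1 to 10 CPM, -0.0046 from 10 to 100 CPM and -0.076 above. Of the 2680 tested genes between 1 and 10 CPM, 12.1% were called at least 1.5-fold higher and 4.22% lower, beside 2 higher (IFIT1 and IFI6) and 0 lower of the 16 members in that class. Among the 7053 genes between 10 and 100 CPM only 1.47% were called higher and 1.32% lower, and of the 9 members there ISG20 was called lower and 0 were called higher. The part that this trend has in the higher values of IFIT1, IFIT2, GBP1, DDX60, IFI6 and IFI35, all between 1 and 10 CPM, was not tested beyond the loess offsets.

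**Figure D4:**
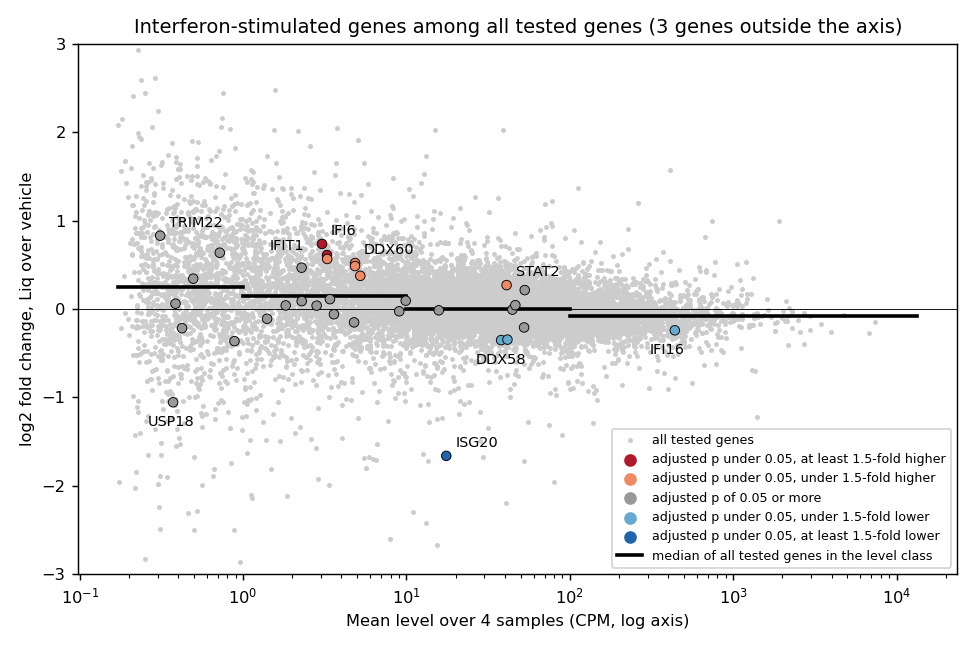
Log2 fold change, Liq over vehicle, against the mean level over the 4 samples (CPM, log axis) for all tested genes (grey), with the interferon-stimulated genes colored by whether they passed the test and black bars for the median of all tested genes in 4 level classes. The bars fall from 0.25 to -0.076 with rising level, ISG20 lies far below the bar of its class, and IFIT1 and IFI6 lie in the class where 12.1% of all genes were called higher.

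Members that share a locus did not all pass the test, and genes of 1 locus are not independent of each other. Within 100 kb of another member lay 22 of the 41 genes, in 9 clusters. In the IFIT cluster 2 of 4 rose, in the GBP cluster 1 of 2 rose, in the IFITM cluster 1 of 3 fell, and in the OAS, MX, HERC and IFI44 clusters 0 of the tested genes passed. Beside these counts, 12.6% of all tested genes were higher and 11.3% lower, and the counts by cluster were not tested.

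Members with the ISRE letters printed above had values in both directions. Of the 18 tested members with a match, 4 rose (IFIT1, GBP1, DDX60 and IFI6), 1 fell (ISG20) and 13 did not pass the test, with a median log2 fold change of 0.05 and a range from -1.66 to 0.74. Of the 8 tested members with a promoter entry and no match, 2 rose, 2 fell and 4 did not pass, with a median of -0.02. ISG20 and IFIT1 both have the core letters in this window and had log2 fold changes of opposite sign, -1.66 and 0.61. With the GAS letters, 2 of 7 tested members rose and 0 fell, and without them 4 of 19 rose and 3 fell. Among all tested genes 12.6% were higher and 11.3% lower. The 4 members with the ISRE letters that rose lie between 1 and 10 CPM. In that class 12.1% of all tested genes were called at least 1.5-fold higher, a threshold that IFIT1 and IFI6 met and GBP1 and DDX60 did not. The counts by motif were not tested.

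A further 45 interferon-induced genes that are not members, a list written from general knowledge, were also read. Of the 38 that were tested, 7 rose (18.4%) and 5 fell (13.2%), with a median log2 fold change of 0.03, beside the 12.6% and 11.3% of all tested genes. IFI30, a lysosomal thiol reductase used in antigen processing, was the gene that passed with a 1.5-fold change, from 37 and 28 counts in vehicle to 61 and 73 in Liq (log2 fold change 0.92, SE 0.25, adjusted p = 0.0089). Those that rose by less were UBE2L6, the conjugating enzyme of ISG15 (0.50), PSMB9, an immunoproteasome subunit (0.55), SAMD9L (0.52), RNF213 (0.45), C19orf66, an inhibitor of ribosomal frameshifting (0.43), and LGALS3BP (0.26). Those that fell were BATF2, a transcription factor (-0.58), TRIM21, a cytosolic antibody receptor (-0.31), SP100, a nuclear body protein (-0.29), WARS, the tryptophan transfer RNA synthetase (-0.23), and PNPT1, a mitochondrial ribonuclease (-0.21). Over all 63 tested genes of the surrounding pathway, 9 rose and 9 fell, with a median of -0.04.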

How the data were processed

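Total RNA of ES2 cells given vehicle or 100 μM Liq for 24 h (2 samples per group, groups and replicate numbers from the sample titles and treatment labels, dose from the study's methods) was made into TruSeq libraries and read as 100-base single ends. According to the submitters' notes, bcl2fastq 2.17.1.14, TopHat2 2.0.8b on hg19 (GRCh37) and HTSeq were used, and whether counting used strand is not given in the sources used here. The authors deposited, sample by sample, the raw count of reads on every gene. HTSeq leaves out reads that align to several places. Its tally line for these held 35.6% to 36.2% of all entries tallied, and 54.1% to 55.6% of entries fell on genes. Whether that line counts a read once or once per alignment is not given in the sources used here, so these may not be shares of reads. The tally lines were kept out of library sizes and tests.

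Counts were analyzed in R 4.3.3 with edgeR 4.0.16: filterByExpr (minimum count 10, minimum total 15), TMM factors, glmQLFit and glmQLFTest of Liq against vehicle over all genes, without a replicate block, with Benjamini-Hochberg adjusted p. A member passed the test at an adjusted p under 0.05. The SE is the absolute log2 fold change divided by the square root of F. Intervals and floors cover counting error and the fitted spread only. CPM are TMM-scaled, and CPM per kb divides by the length of the canonical GENCODE transcript. Gene positions are from GENCODE lifted to GRCh37, in which 40 members matched by symbol and DDX58 through a later symbol.

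The members, the pathway and marker lists and the alternatives were chosen with earlier results of these data known. Named were members with an adjusted p under 0.05, given by sample, pathway and marker genes that also had a 1.5-fold change, and the interferon receptors, with every member accounted for. A few genes of the pathway and marker lists are not reported here. Further genes of the pathway and marker lists were named after their values were seen. Alternatives were other scaling (DESeq2 size factors, upper quartile, loess offsets with a span of 0.3), other filters (none, or 10 counts in every sample), the Wald test of DESeq2 1.42.0, a replicate block, each sample left out, a 2-fold threshold and unadjusted p. Samples with the same replicate number did not deviate together (correlation 0.0483 across genes). Chi-square per degree of freedom was 6.56 between the vehicle samples, 11.6 between the Liq samples and at least 60.9 between groups, so no 2 samples agreed within sampling noise.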

Additional observations from a re-analysis of the deposited data

How the results depend on the processing

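At 1.5-fold, 2 members were higher, and 3 with upper-quartile scaling, IFIT2 being added. The number was 0 with loess offsets and at a 2-fold threshold, 1 (IFI6) with DESeq2, and 1 to 4 when single samples were left out, with 1 (IFI6) without vehicle replicate 1, 1 (GBP2, in place of IFIT1 and IFI6) without Liq replicate 1 and 4 (GBP1 and IFIT2 added) without Liq replicate 2. The 1 lower member, ISG20, was joined by USP18 (2 in all) with loess offsets and with unadjusted p, and was the same when samples were left out. Without the fold threshold, the 7 higher members became 2 (IFI6 and STAT2) with loess offsets and with DESeq2, and 1 to 7 with a sample left out, with 1 (IFI6) without vehicle replicate 1. SAMD9 was added with upper-quartile scaling, and GBP2 and SAMD9 without Liq replicate 1, where GBP1, IFI35 and STAT2 were lost. The 4 lower members became 2 without vehicle replicate 1 and 2 without vehicle replicate 2, the range being 2 to 4. USP18 took the place of IFI16 with loess offsets, and IFI44 that of IFITM2 without Liq replicate 2. Where a sample was left out, the lone sample of its group was assumed to vary like the other group. The median of the tested members was -0.06 with loess offsets and 0.03 to 0.07 otherwise. The cause of these changes was not tested.

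The replicate numbers do not pair the samples by the labels or by their deviations (correlation 0.0483). With the number as a block, 2 members were higher and 1 lower at 1.5-fold, and 8 higher and 5 lower without that threshold, SAMD9 and IFI44 being added.

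Among members that passed the test, 0 reversed. Among those that did not pass in either fit, IFIT5 changed sign with upper-quartile scaling (0.021) and loess offsets (0.0049), IRF1 (0.013) and IRF9 (0.0020) with upper-quartile scaling, and IFIH1 (-0.086), IRF7 (-0.044), ISG15 (-0.15), HERC5 (-0.12) and IFI44L (-0.21) with loess offsets. With a sample left out, ranges crossed 0 for IFIT5 (-0.057 to 0.039), OAS2 (-0.56 to 0.017), MX1 (-0.18 to 0.64), IFITM3 (-0.12 to 0.20), IRF1 (-0.060 to 0.032), IRF7 (-0.10 to 0.33), IRF9 (-0.084 to 0.036), ISG15 (-0.10 to 0.18), HERC5 (-0.078 to 0.13), HERC6 (-0.12 to 1.9e-04), IFI27 (-0.58 to 0.18) and IFI44L (-0.46 to 0.81).

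Over all genes, 581 were higher and 293 lower at 1.5-fold, and 350 and 394 with loess offsets, 341 and 226 with DESeq2. At adjusted p alone, 1712 were higher and 1533 lower, 1093 and 1300 with DESeq2, 805 and 608 without vehicle replicate 1, and 866 and 676 without vehicle replicate 2. At under 1 CPM, where 7 tested members lie, counts limit what can be seen, and without a filter on low counts OAS1, OASL, MX2, BST2 and CXCL11 had adjusted p from 0.68 to 0.89.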
